A study of Mus musculus with 6 samples.

Results

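The phagocyte NADPH oxidase was followed here through 7 genes that were taken by name: Cybb and Cyba of the membrane cytochrome, Ncf1 and Ncf4 of the cytosolic complex, the small GTPases Rac1 and Rac2, and Hvcn1, the proton channel that works beside the enzyme. They are 7 of 29374 genes with an estimated read, and all 7 were among the 16656 genes with enough reads to be tested. Poly(A) RNA came from CD11b+Gr1+ splenocytes, myeloid cells sorted by flow cytometry from tumor-bearing mice, with 3 libraries of genotype Rpl22+/+ and 3 of genotype Rpl22-/-. All 6 libraries carry Mll-AF9, a fusion oncogene of acute myeloid leukemia that the study describes as a knockin, so there was no group without the oncogene. The product of Rpl22 sits in the large subunit of the ribosome. The study names a single mouse of each genotype for these explants, and it is not given whether replicates came from separate animals, so p-values measure the spread between libraries, which may be technical. The methods of the study give its Rpl22 mice as young adults of 8 to 12 weeks, on a C57BL/6 background after backcrossing, for every experiment. They also describe Mll-AF9 mice as killed on signs of disease or at set times, and the study scored leukemic burden in such mice at an age above that range. The age of the tumor-bearing mice behind these libraries is not given.

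The phagocyte oxidase moves electrons from cytosolic NADPH across the membrane of a neutrophil or macrophage to oxygen and so makes superoxide, the first product of the oxidative burst that kills ingested microbes. At rest its parts are separate. A stimulus leads kinases to phosphorylate the cytosolic subunits and exchange factors to load Rac with GTP, after which these proteins join the cytochrome at the membrane. Loss of the cytochrome or of the cytosolic subunits causes chronic granulomatous disease. Myeloid cells acquire most of these subunits as they mature from promyelocytes to neutrophils or monocytes.

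Libraries held 35828500 to 102866127 estimated reads. Rpl22+/+ replicate 2 stood apart, with log2 CPM correlated at r = 0.926 and 0.934 with the other 2 Rpl22+/+ libraries across genes, against 0.992 between those, and the genotype difference of each of the 7 genes is therefore also given without it. Rpl22 itself stood at 596, 730 and 615 TPM in Rpl22+/+ and at 234, 326 and 290 TPM in Rpl22-/-, and its CPM were 2.41-fold lower (log2 fold change -1.27 ± 0.25 SE, adjusted p = 0.0106), so the groups did not overlap but reads of the gene remained in the libraries labelled Rpl22-/-. Of the genes for the sorted surface proteins, Itgam, which encodes CD11b, stood at 491 to 562 TPM against 245 to 328 TPM, and Ly6g, an antigen bound by the Gr1 antibody, at 236 to 259 TPM against 18.8 to 27.8 TPM, and both fell. Ly6c2, for the Ly6C antigen that the Gr1 antibody also binds, stood higher, at 1903 ± 250 against 2900 ± 355 TPM (mean ± SD, n = 3), but did not pass in CPM (log2 difference 0.51 ± 0.25 SE, adjusted p = 0.18 by edgeR).

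Among the 7 genes, 4 fell in the Rpl22-/- leukemias and 0 rose, at an adjusted p under 0.05 in the quasi-likelihood test of edgeR. The background was 13.8% of all tested genes called lower and 13.7% called higher. The genes that fell were Cybb, Ncf1, Ncf4 and Rac2. The count was 4 without Rpl22+/+ replicate 2, but 2 without Rpl22+/+ replicate 3 and 1, Cybb, without Rpl22-/- replicate 1 or without Rpl22-/- replicate 3. Cyba and Rac1 were also lower in every Rpl22-/- library than in every Rpl22+/+ library but did not pass, and Hvcn1 had a fold change above 1 and did not pass. In CPM, read counts per library scaled to a common TMM-adjusted total, 6 of the 7 lay lower in Rpl22-/- with no overlap between the groups, against 22.2% of all tested genes. Only Cybb, 1 of 7, fell over 2-fold, against 8.54% of tested genes. The median log2 fold change was -0.57 over the 7 genes and 0.07 over all genes tested.

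**Figure D1:**
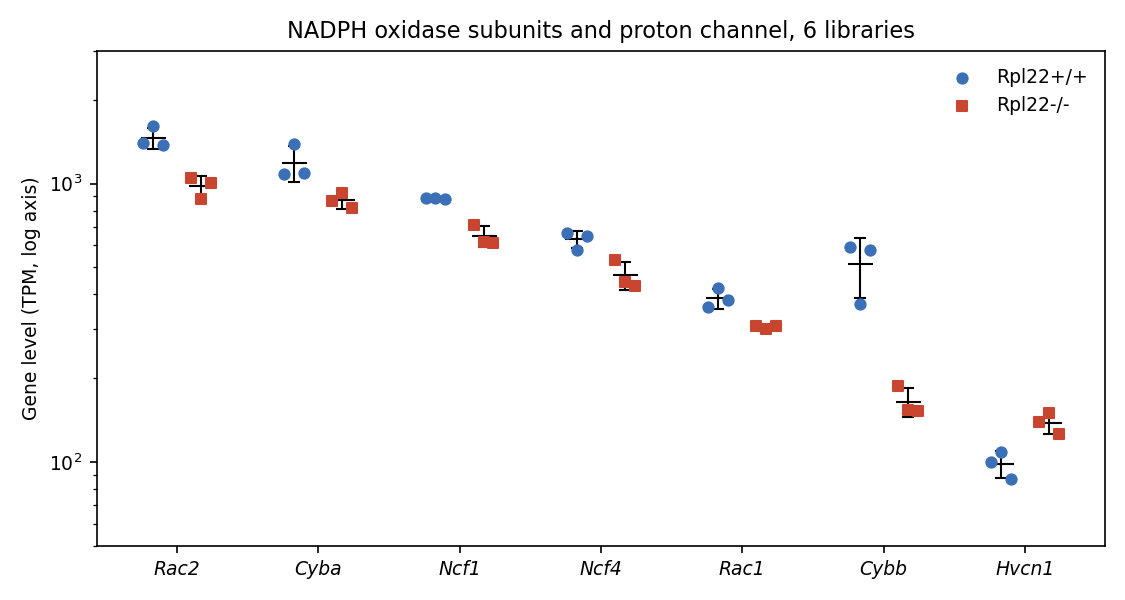
Level of each gene in TPM, on a log axis, with a point for each of the 6 libraries and bars for the mean and SD of each genotype (n = 3). Cybb has the widest gap, from a mean of 514 TPM in Rpl22+/+ to 164 TPM in Rpl22-/-, and Hvcn1 alone lies higher in Rpl22-/-.

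Cybb encodes gp91phox, the catalytic subunit that binds NADPH, flavin and the hemes (ENSMUSG00000015340, chrX:9301491-9354010, minus strand, GRCm39). Its level in TPM, a transcript abundance per length scaled to the same total in each library, was 594, 369 and 578 in Rpl22+/+ replicates 1, 2 and 3 and 187, 154 and 152 in Rpl22-/- replicates 1, 2 and 3. The lowest Rpl22+/+ library thus remained well above the highest Rpl22-/- library. In CPM the Rpl22+/+ libraries stood at 2012, 1676 and 2024 and the Rpl22-/- libraries at 603, 591 and 529. Cybb fell 3.31-fold (log2 fold change -1.73 ± 0.16 SE, 95% interval -2.10 to -1.35, adjusted p = 0.000561). It passed in all 17 alternative fits, with log2 fold changes of -1.86 to -1.61, and was -1.86 without Rpl22+/+ replicate 2.

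Cyba encodes p22phox, the small subunit that pairs with gp91phox and docks the cytosolic complex (ENSMUSG00000006519, chr8:123151515-123159669, minus strand). It stood at 1083, 1386 and 1095 TPM in Rpl22+/+ and at 869, 928 and 814 TPM in Rpl22-/-. The groups did not overlap, and Rpl22+/+ replicate 2 was the highest library. The log2 difference of -0.56 ± 0.24 SE did not pass (95% interval -1.12 to 0.01, adjusted p = 0.133). With the replicate number as a block it was -0.52 and passed (adjusted p = 0.0451), as it did on log2(TPM + 1) at -0.44 (adjusted p = 0.0432), and without Rpl22+/+ replicate 2 it was -0.32 (adjusted p = 0.136).

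The subunits of the cytochrome were also compared within libraries. The ratio of Cyba to Cybb in TPM was 1.82, 3.76 and 1.89 in Rpl22+/+ and 4.65, 6.03 and 5.35 in Rpl22-/-. Every Rpl22-/- library had a higher ratio than every Rpl22+/+ library, by 2.26-fold on average (difference in mean log2 ratio 1.18), and the difference was 1.51 without Rpl22+/+ replicate 2, whose ratio was the highest of its group. The two-sided exact permutation test gave p = 0.1, the smallest p that 3 libraries against 3 allow, and 0.15 after Benjamini-Hochberg adjustment over the 3 ratios tested. Cybc1, which encodes the chaperone that cytochrome assembly needs, stood at -0.15 ± 0.16 SE on the log2 scale (adjusted p = 0.545), with mean levels of 86.0 and 84.1 TPM.

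Ncf1 encodes p47phox, the organizer whose phosphorylation starts assembly (ENSMUSG00000015950, chr5:134248907-134258479, minus strand). Its level was 890, 889 and 881 TPM in Rpl22+/+ and 713, 618 and 613 TPM in Rpl22-/-. The Rpl22+/+ libraries had an SD of 4.92 TPM, and no Rpl22-/- library reached them. In CPM they spread more widely, at 1622, 2163 and 1656, against 1239, 1273 and 1145 in Rpl22-/-. Ncf1 fell 1.49-fold (log2 fold change -0.57 ± 0.17 SE, adjusted p = 0.0477), close to the threshold. The call was lost without Rpl22+/+ replicate 1 (adjusted p = 0.0746), Rpl22+/+ replicate 3 (0.105), Rpl22-/- replicate 1 (0.127) or Rpl22-/- replicate 3 (0.162), and was kept without Rpl22+/+ replicate 2 at -0.47.

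Ncf4 encodes p40phox, which binds phosphatidylinositol 3-phosphate on the phagosome (ENSMUSG00000071715, chr15:78129001-78146780, plus strand). It stood at 663, 579 and 648 TPM in Rpl22+/+ and at 529, 445 and 430 TPM in Rpl22-/-. The groups again did not overlap. Ncf4 fell 1.62-fold (log2 fold change -0.70 ± 0.15 SE, adjusted p = 0.0168), and the call was lost without Rpl22-/- replicate 1 (adjusted p = 0.0616) or replicate 3 (0.0779) and on log2(TPM + 0.1) (0.0573). Without Rpl22+/+ replicate 2 the difference was -0.61.

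Ncf1 and Ncf4, partners in the cytosolic complex, kept a similar ratio as gene sums. The ratio of Ncf1 to Ncf4 in TPM was 1.34, 1.53 and 1.36 in Rpl22+/+ and 1.35, 1.39 and 1.43 in Rpl22-/-, with overlapping groups (exact permutation p = 0.9). That likeness depended on short transcripts of Ncf4. Transcript shares here and below cover only transcripts matched to GENCODE vM21, and any others of the same gene are left out. Of 6 matched Ncf4 transcripts, 4 retain an intron. These took 39.8%, 25.8% and 38.0% of the Ncf4 TPM in Rpl22+/+ and 52.5%, 45.3% and 42.2% in Rpl22-/-.

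The share of intron-retaining Ncf4 transcripts was thus higher in every Rpl22-/- library, at 46.7% ± 5.28 (SD, n = 3) against 34.5% ± 7.63 (two-sided exact permutation p = 0.1, the smallest possible, and 0.3 adjusted over the 3 genes with such transcripts). This share was examined after the transcript values had been seen. Without Rpl22+/+ replicate 2, which had the lowest share, the difference was 7.77 in place of 12.1 percentage points. For Ncf4-201, the leading coding transcript, the difference in share was -8.72 percentage points in TPM, -4.95 without Rpl22+/+ replicate 2 and -4.85 in estimated reads. The other Ncf4 transcripts, the coding Ncf4-201 and Ncf4-203, summed to 399, 430 and 402 TPM in Rpl22+/+ and to 251, 243 and 249 TPM in Rpl22-/-, a 1.66-fold difference of the means with no overlap. The intron-retaining transcripts summed to 264, 149 and 246 TPM against 278, 201 and 182 TPM, where the groups overlapped. Without transcripts under 600 bases, a limit set after seeing the data that removes 2 intron-retaining Ncf4 transcripts, the ratio of Ncf1 to Ncf4 became 2.02, 1.99 and 2.02 in Rpl22+/+ and 2.45, 2.33 and 2.27 in Rpl22-/-, and the groups no longer overlapped (exact permutation p = 0.1). Intron-retaining transcripts of Cybb took 0.05% to 4.45% and those of Ncf1 2.23% to 7.67%, with overlapping groups for each. Short paired reads are divided among overlapping transcripts by a model, and the error of that division is not known here.

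**Figure D2:**
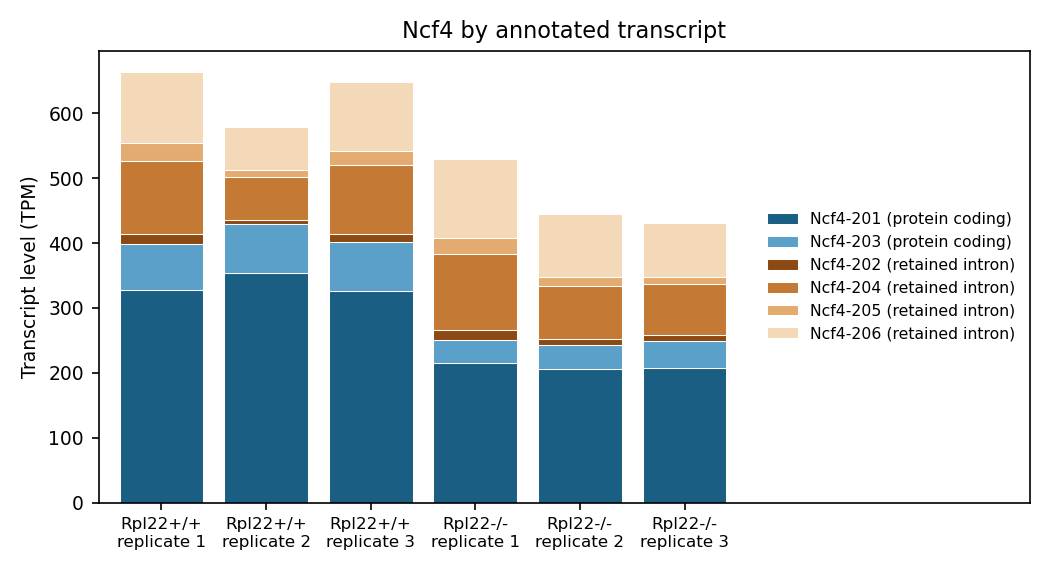
Stacked bars of the TPM of each annotated Ncf4 transcript in each of the 6 libraries, coding transcripts in blue and intron-retaining ones in brown. The blue part falls from 399 to 430 TPM in Rpl22+/+ to 243 to 251 TPM in Rpl22-/-, while the brown part covers overlapping ranges.

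Rac GTPases switch the assembled enzyme on, and Rac2 is the form made by blood cells, on which the neutrophil oxidase depends. Rac2 (ENSMUSG00000033220, chr15:78443367-78456983, minus strand) stood at 1399, 1606 and 1372 TPM in Rpl22+/+ and at 1045, 882 and 1006 TPM in Rpl22-/-. No library of either group reached the other. Rac2 fell 1.68-fold (log2 fold change -0.75 ± 0.18 SE, adjusted p = 0.0248). The call was lost without Rpl22+/+ replicate 3 (adjusted p = 0.0609), Rpl22-/- replicate 1 (0.0797) or Rpl22-/- replicate 3 (0.09), and the difference was -0.61 without Rpl22+/+ replicate 2.

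Rac1, the form that most cells use for actin control (ENSMUSG00000001847, chr5:143489389-143513791, minus strand), stood at 359, 422 and 381 TPM in Rpl22+/+ and at 307, 300 and 308 TPM in Rpl22-/-. The groups did not overlap, yet a log2 difference of -0.45 ± 0.19 SE did not pass (95% interval -0.90 to 0.01, adjusted p = 0.135). It was -0.28 without Rpl22+/+ replicate 2 (adjusted p = 0.103), and Rac1 passed in 1 of 17 alternative fits, on log2(TPM + 1) (-0.34, adjusted p = 0.0279).

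The ratio of Rac2 to Rac1 in TPM was 3.90, 3.81 and 3.60 in Rpl22+/+ and 3.41, 2.94 and 3.27 in Rpl22-/-. It was lower in each Rpl22-/- library, by 1.18-fold on average, with the smallest exact permutation p possible (0.1, adjusted 0.15). Both genes carry short annotated transcripts that took a large share of their TPM. Rac2-203, of 254 bases, took 49.4% to 53.7% of Rac2, and Rac1-204, a noncoding transcript of 585 bases, took 53.4% to 56.9% of Rac1. Without transcripts under 600 bases the ratio was 4.15, 3.92 and 4.14 against 3.45, 3.04 and 3.35, and the groups still did not overlap.

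**Figure D3:**
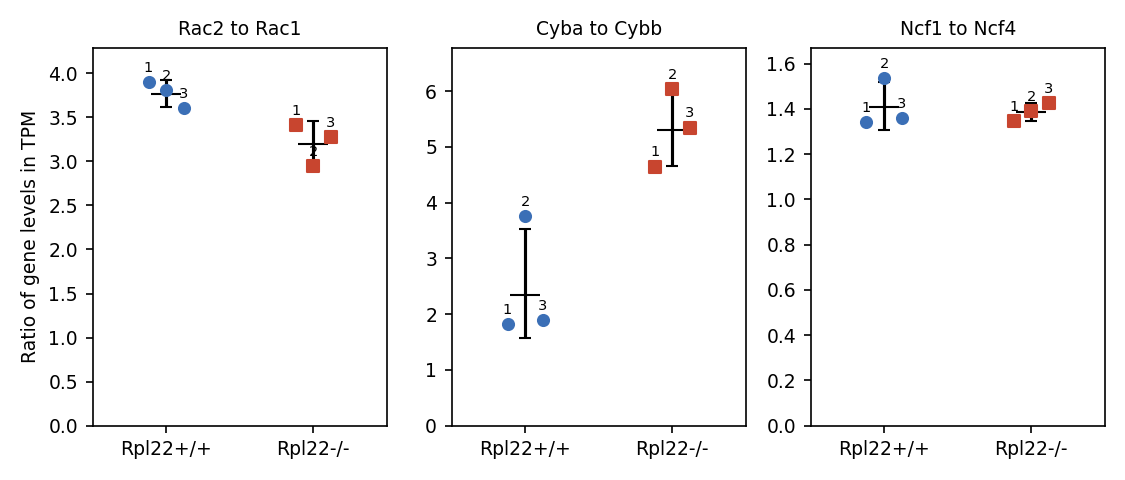
Ratio of gene levels in TPM within each library, labelled by replicate number, with bars for the mean and SD of the log2 ratio drawn on the linear axis (n = 3 for each genotype). The ratio of Cyba to Cybb runs from 1.82 to 3.76 in Rpl22+/+ and from 4.65 to 6.03 in Rpl22-/-, the ratio of Rac2 to Rac1 is lower in every Rpl22-/- library, and the ratio of Ncf1 to Ncf4 overlaps.

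Hvcn1 encodes the voltage-gated channel that lets protons follow the electrons the oxidase exports (ENSMUSG00000064267, chr5:122344867-122380360, plus strand). Its level was 100, 109 and 86.7 TPM in Rpl22+/+ and 139, 150 and 126 TPM in Rpl22-/-, with no overlap. In CPM the groups did overlap, at 181, 254 and 162 against 223, 278 and 214, and the log2 difference of 0.26 ± 0.21 SE did not pass (95% interval -0.24 to 0.77, adjusted p = 0.415). On log2(TPM + 1) the difference was 0.48 and passed (adjusted p = 0.0274). With the transcript length offset, which keeps the edgeR test, Hvcn1 did not pass. Without Rpl22+/+ replicate 2 it was 0.44 (adjusted p = 0.0787).

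Among the transcripts of Hvcn1, Hvcn1-201, a coding transcript of 2790 bases, took 79.6%, 81.2% and 81.0% of the gene's TPM in Rpl22+/+ and 70.3%, 71.6% and 71.3% in Rpl22-/- (exact permutation p = 0.1, and 0.233 adjusted over the leading transcripts of the 7 genes). Hvcn1-204, of 657 bases with 47 coding codons annotated, took 8.13%, 7.82% and 7.17% against 15.7%, 13.8% and 15.3%. Its own level was 6.22 to 8.51 TPM in Rpl22+/+ and 19.2 to 21.8 TPM in Rpl22-/-, with no overlap. Counted in estimated reads in place of TPM, the difference in the share of Hvcn1-201 was -4.69 percentage points in place of -9.55. The leading transcripts of Cybb, Ncf1, Rac1 and Rac2 had shares whose groups overlapped, and Cyba-201 took 95.2% to 96.1% of Cyba in Rpl22+/+ and 96.6% to 97.2% in Rpl22-/-.

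**Figure D4:**
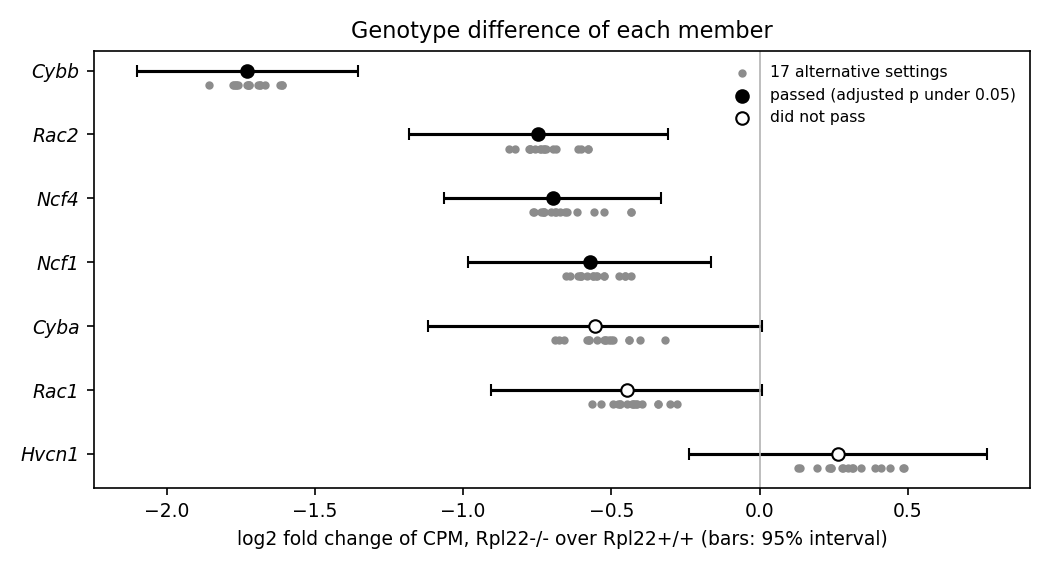
Log2 fold change of CPM, Rpl22-/- over Rpl22+/+, for each gene with its 95% interval (filled where the adjusted p was under 0.05) and, in grey below it, the values of the 17 alternative fits. The grey points of Cybb stay between -1.86 and -1.61, those of the other 5 oxidase genes lie below 0 and those of Hvcn1 above 0.

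Within a library the levels ranked in much the same order. In Rpl22+/+ replicates 1 and 3 the order by TPM was Rac2, Cyba, Ncf1, Ncf4, Cybb, Rac1 and Hvcn1. In Rpl22+/+ replicate 2 and in all 3 Rpl22-/- libraries Rac1 stood above Cybb, and in Rpl22-/- replicate 2 Cyba also stood above Rac2. Across Rpl22+/+ libraries the ranges of the neighbours Rac2 and Cyba, Ncf4 and Cybb, and Cybb and Rac1 overlapped, while Ncf1 and Hvcn1 stood clear. Across Rpl22-/- libraries only the ranges of Rac2 and Cyba overlapped. Among all tested genes, Cybb ranked 260 on average by TPM in Rpl22+/+ and 794 in Rpl22-/-, whereas Rac2 ranked 81.0 and 144. Without transcripts under 600 bases the order began with Cyba, Ncf1 and Rac2 in every library, so the first place of Rac2 rested on its 254-base transcript.

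Some reads of these genes could belong to neighbours on the other strand. Of the 31-base words in the annotated Rac1 transcripts, 50.7% also occur, reverse-complemented, in Daglb, and 41.5% of those in Hvcn1 occur in Tctn1 and 8.84% of those in Ncf1 in Gtf2ird2. The library kit keeps strand, but the strand setting of the quantification is not given in the sources used here. Daglb stood at 14.6 ± 0.69 TPM in Rpl22+/+ and 40.8 ± 8.28 TPM in Rpl22-/- (mean ± SD, n = 3), Tctn1 at 4.64 to 5.83 against 3.56 to 4.59 TPM, and Gtf2ird2 at 3.35 to 4.05 against 5.02 to 7.02 TPM, each far under its overlapping partner. Their part in the values of Rac1, Hvcn1 and Ncf1 was not tested. Cybb and Ncf4 shared no 31-base word with another gene, and Rac1 and Rac2 shared none with each other.

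Promoter windows were read for the 3 of the 7 genes that matched the RefSeq table, which is on the GRCm38.p6 build, unlike the gene positions above. The 250 bases before the annotated start are shown for Cybb, which had the largest fall, for its partner Cyba and for Ncf1, from 5′ to 3′ on the strand of the gene. Capitals mark matches on either strand to GAAANNGAA, a core of the interferon response element, which IRF factors bind.
Cybb, chrX:9469325-9469574, minus strand: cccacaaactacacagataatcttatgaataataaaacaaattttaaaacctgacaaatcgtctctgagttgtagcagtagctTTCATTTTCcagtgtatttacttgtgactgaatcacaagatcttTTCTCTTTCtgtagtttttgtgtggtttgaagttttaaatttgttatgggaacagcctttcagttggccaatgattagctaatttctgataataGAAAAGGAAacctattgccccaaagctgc
Cyba, chr8:122432941-122433190, minus strand: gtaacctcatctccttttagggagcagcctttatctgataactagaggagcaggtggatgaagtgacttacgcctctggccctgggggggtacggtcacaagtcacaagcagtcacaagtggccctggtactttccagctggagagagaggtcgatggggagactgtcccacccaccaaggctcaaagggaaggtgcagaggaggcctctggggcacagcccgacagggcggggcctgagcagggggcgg
Ncf1, chr5:134229626-134229875, minus strand: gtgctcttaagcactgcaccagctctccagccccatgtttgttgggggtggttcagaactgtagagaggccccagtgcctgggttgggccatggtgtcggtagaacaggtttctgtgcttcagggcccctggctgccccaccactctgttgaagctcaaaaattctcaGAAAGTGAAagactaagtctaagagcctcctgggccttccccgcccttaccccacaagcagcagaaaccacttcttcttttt

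Cybb held 3 such matches, at 167 to 159, 123 to 115 and 29 to 21 bases before the start, Ncf1 held 1, at 82 to 74 bases, and Cyba held 0. Among 32851 promoter windows of the same length, 7.13% held at least 1 match. GAGGAA (a form of the site bound by PU.1, in 23.3% of windows), TTNNGNAAT (C/EBP, 10.2%) and TATAAA (the TATA box, 12.4%) had no match on either strand in these 3 windows. That says only that these letters are not there, and other or shorter forms of the sites were not searched. The windows differed in base composition, with 34% G and C in Cybb, 60% in Cyba and 54.4% in Ncf1.

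The wider oxidative burst was described with 106 other genes in 7 lists, of which 97 were tested, 35 fell and 8 rose. That is 36.1% lower and 8.25% higher, beside 13.8% and 13.7% of all tested genes, and the median log2 fold change of the 97 was -0.35. The counts were 42 and 14 without Rpl22+/+ replicate 2. The number that fell was 23 without Rpl22-/- replicate 3, and the number that rose was 3 to 5 without any 1 of the other 5 libraries. No test was made of any list as a whole.

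Receptors that trigger the burst had the lowest median, -1.25, with 12 of 18 falling and 1 rising. C5ar1, the receptor for the complement fragment C5a, fell from 118 ± 5.13 to 17.6 ± 3.72 TPM (mean ± SD, n = 3, log2 fold change -2.62 ± 0.18 SE, adjusted p = 0.000203 by edgeR), and the activating Fc receptor Fcgr3 fell by 1.51 on the log2 scale. Itgam and Itgb2, the chains of the integrin CR3, fell by 1.02 and 1.44. Tlr4, the receptor for lipopolysaccharide, rose by 1.13, a call lost without Rpl22+/+ replicate 3, Rpl22-/- replicate 1 or Rpl22-/- replicate 2 and on log2(TPM + 0.1). The G-CSF receptor gene Csf3r, at 0.47 ± 0.15 SE, did not pass (adjusted p = 0.0645), but passed as higher in 5 of 17 alternative fits, that without Rpl22+/+ replicate 2 among them. The number of these receptors that rose ranged from 0 to 2 over the 17, and was 2 with the replicate number as a block, where the other was Csf2ra, named here after its values were seen. The number that fell ranged from 11 to 13. Tlr2, also named after its values were seen, passed as lower only with that block (-0.92).

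Of 13 Rac regulators, 7 fell and 0 rose, with a median of -0.52, and 4 fell without Rpl22+/+ replicate 3, Rpl22-/- replicate 1 or Rpl22-/- replicate 3. Arhgap25, which encodes a GTPase-activating protein that returns Rac to its inactive state in phagocytes, fell by 1.63 on the log2 scale, and the exchange factor gene Tiam2 by 1.01. Prex1, whose product loads Rac2 with GTP on signals from chemoattractant receptors, fell by 1.36, and Arhgdib, which encodes the inhibitor that holds Rac2 in the cytosol, by 0.80, a call lost without Rpl22+/+ replicate 3 or Rpl22-/- replicate 1 or 3. Activators and inhibitors of Rac were thus both among the genes that fell. Vav1, the exchange factor of immune cells, had a difference of -0.08 ± 0.16 SE (adjusted p = 0.776). In 5 of 17 alternative fits, that without Rpl22+/+ replicate 2 among them, 1 regulator rose, Bcr, named after its values were seen.

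Among 19 kinases and lipid enzymes that act upstream, 9 fell and 1 rose, with a median of -0.56. Over the 17 alternatives the number that fell ranged from 3, without Rpl22-/- replicate 3, to 13. Plcg2 and Pik3c3, named after their values were seen, passed as lower in 9 and 7 of them. Pik3cg and Pik3r6, the catalytic and a regulatory subunit of PI3K gamma, fell by 1.12 and 1.04 on the log2 scale. Prkcd, a protein kinase C that phosphorylates p47phox, fell by 0.88, while Prkcb, another such kinase, stood at -0.19 ± 0.17 SE (adjusted p = 0.473) and passed as lower in 1 alternative fit, without Rpl22+/+ replicate 2. Pak1, a kinase that Rac activates, rose by 0.54, a call lost without Rpl22+/+ replicate 1 or 3 or Rpl22-/- replicate 1 or 3. Pik3r4, named after its values were seen, also rose in 3 of 17 alternative fits, which were those without Rpl22+/+ replicate 2, with no composition factor and on log2(TPM + 1).

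NADPH supply had 3 of 10 tested genes falling, 0 rising and a median of -0.14, and 1 fell without Rpl22-/- replicate 1 or replicate 3. Me2, which encodes a mitochondrial malic enzyme that can use NAD or NADP, fell by 0.93 on the log2 scale and Nadk, the kinase that makes NADP from NAD, by 0.92. The call for Me2 was lost without Rpl22-/- replicate 1 or 3. G6pdx, the first enzyme of the pentose phosphate pathway, fell by 0.78, a call lost without those libraries or Rpl22+/+ replicate 3, and the next dehydrogenase of that pathway, Pgd, was at 0.30 ± 0.20 SE and did not pass (adjusted p = 0.333). Without Rpl22+/+ replicate 2 and on both log2(TPM) scales 2 genes rose, Pgd and Idh2, the latter named after its values were seen, and 1, Pgd, rose with no composition factor.

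Of 22 genes that handle superoxide and peroxide, 4 fell and 4 rose, with a median of -0.10, beside 13.8% lower and 13.7% higher over all tested genes. The number that rose was 2 without Rpl22+/+ replicate 1, Rpl22+/+ replicate 3 or Rpl22-/- replicate 3. Over the 17 alternatives the number that fell ranged from 3 to 6 and the number that rose from 2 to 5. Prdx5 and Prdx1, named after their values were seen, passed as lower in 11 and 9 of them. Mpo, which encodes myeloperoxidase, the granule enzyme that turns peroxide into hypochlorous acid, rose from 740 ± 121 to 6430 ± 798 TPM (mean ± SD, n = 3, log2 fold change 2.99 ± 0.28 SE, adjusted p = 0.000663 by edgeR). Gclm, the regulatory subunit for glutathione synthesis, rose by 1.23 and Gpx1, a glutathione peroxidase, by 0.98. The cystine transporter gene Slc7a11 fell by 2.23, the quinone reductase gene Nqo1 by 1.39 and Sod1, the cytosolic superoxide dismutase, by 1.06. The call for Gpx1 was lost without Rpl22+/+ replicate 1 or 3 or Rpl22-/- replicate 3, and that for Sod1 without Rpl22+/+ replicate 3 or Rpl22-/- replicate 1 or 3.

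Of 12 transcription factors known to act on oxidase genes, 0 fell and 1 rose. Gfi1, a repressor active in granulocyte precursors, rose from 36.6 ± 2.03 to 176 ± 16.4 TPM (mean ± SD, n = 3, log2 fold change 2.20 ± 0.15 SE, adjusted p = 0.000188 by edgeR). Spi1, which encodes PU.1, was at -0.47 ± 0.23 SE (adjusted p = 0.183), Irf8 at -0.50 ± 0.28 SE (0.235), Cebpe at -0.02 ± 0.19 SE (0.948) and Cebpa at 0.83 ± 0.28 SE (0.0674), none of which passed. Cebpa passed as higher in 9 of 17 alternative fits, including that without Rpl22+/+ replicate 2 and that with the replicate block, so that 2 factors rose in those 9 and 1 in the other 8. Other NADPH oxidases were at or near 0, with means of at most 0.12 TPM for Nox1, Nox4, Duox1 and Duox2 and Nox3 listed at 0 in all libraries. Noxo1, the organizer of the colonic oxidase, rose by 1.29 on the log2 scale from 0.99 to 2.61 TPM, a call absent from 8 of 17 alternative fits.

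**Figure D5:**
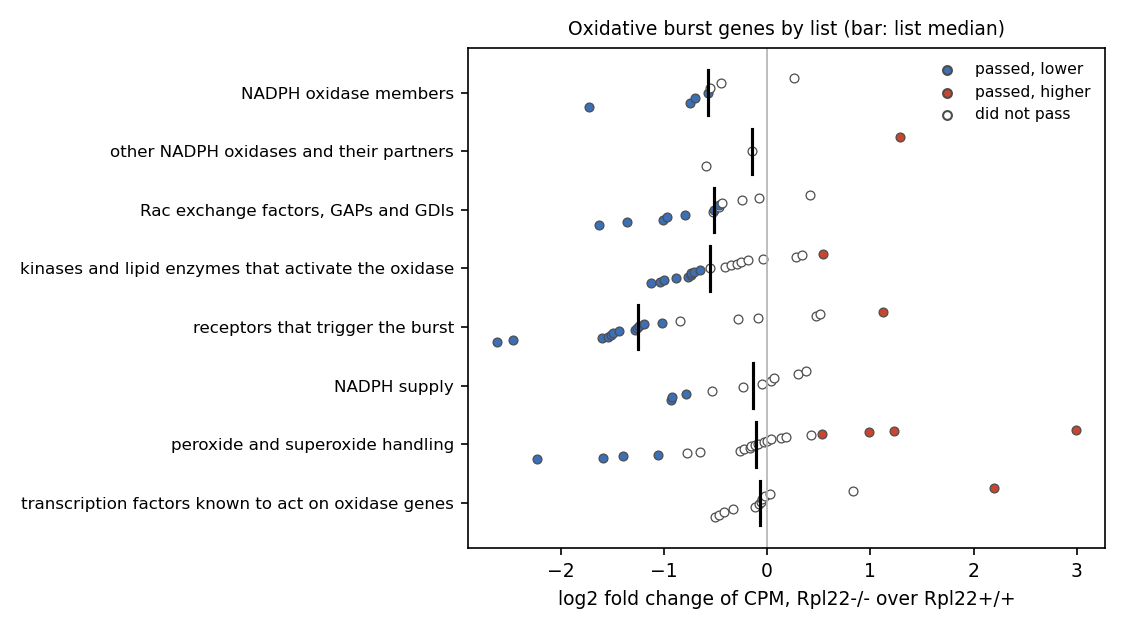
Log2 fold change of CPM, Rpl22-/- over Rpl22+/+, for each tested gene of the 7 oxidase and channel genes and of the 7 other lists, coloured where the adjusted p was under 0.05, with a bar at each list median. Receptors have the lowest median (-1.25), and Mpo, at 2.99, is the farthest point on the higher side.

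Markers of maturation moved with the oxidase genes. Of 9 genes listed as mature neutrophil markers 8 fell, and Il1b did not pass. The summed level of the list was 45560 to 48526 TPM in Rpl22+/+ and 12917 to 18280 TPM in Rpl22-/-. Its largest parts were Ngp, Camp and Ltf, with means of 24672, 10654 and 6789 TPM in Rpl22+/+. Their log2 fold changes were -1.40, -1.61 and -2.52. Those of Cxcr2, Mmp9, Ly6g, Mmp8 and Retnlg ran from -2.64 to -4.09. The sum thus follows mainly Ngp, Camp and Ltf, and does not measure mature neutrophils alone. All 6 immature granulocyte markers rose, from 3130 to 4042 TPM summed to 27636 to 32961 TPM, with Elane at 903 to 1170 against 10857 to 13299 TPM. In bulk RNA fewer cells of a type and less RNA per cell cannot be told apart, and the part of these markers in the oxidase differences was not tested. Of 11 monocyte and macrophage markers 3 fell and 4 rose, with sums of 500 to 587 against 252 to 345 TPM.

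Markers of cells outside the gate were also present. B cells, which express Cybb, Cyba, Rac2 and Hvcn1 as well, had 2 of 8 markers falling, with sums of 554 to 714 against 386 to 504 TPM. T cell markers summed to 46.0 to 57.3 against 50.6 to 52.8 TPM, with 7 of 8 falling and Thy1 rising. Erythroid markers, 7 of 8 of which rose, summed to 248 to 286 against 1675 to 3059 TPM. Sums were low for the remaining types and did not overlap between genotypes. In Rpl22+/+ against Rpl22-/- they were 3.82 to 5.21 against 5.66 to 5.97 TPM for platelets and 13.8 to 16.9 against 8.70 to 10.5 TPM for eosinophils. They were 7.67 to 8.47 against 3.94 to 5.34 TPM for dendritic cells and 23.6 to 26.5 against 33.5 to 39.2 TPM for stroma and endothelium, the last carried by Pecam1. The largest part of the dendritic cell sum was Flt3, with means of 4.63 and 2.39 TPM. Of the 6 dendritic cell genes, 2 fell, Flt3 and Cd209a, and 4 did not pass. The part of any of these cells in the oxidase differences was not tested.

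Across the 6 libraries, log2 CPM of Cyba, Ncf1, Ncf4, Rac1 and Rac2 went together, with Pearson r of 0.901 to 0.993 between each pair, as a description over points that share genotype and the library that stood apart. Cybb correlated with these 5 at 0.647 to 0.906, the lowest with Cyba, and Hvcn1 with the other 6 at -0.58 to 0.202. Genes whose pattern was among the most like a member's, among 11508 genes searched, were Nudt4, S100a11 and Capza1 for Cybb, Vps4a, Mxd4 and Prpf6 for Cyba, Glyr1, Dgat2 and Atp6v1a for Ncf1, and Tbc1d10b, Tmem8 and Mark3 for Ncf4. For Rac1 they were Nploc4, Stk24 and Pcif1, for Rac2 Atg9a and Gtpbp1, and for Hvcn1 Ndufb4, Marc2 and Atp5k. The lowest r among these over the 6 libraries was 0.996, for Atp5k.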

How the data were processed

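RNA-seq of 3 Rpl22+/+ and 3 Rpl22-/- Mll-AF9 CD11b+Gr1+ splenocyte libraries was grouped by sample titles. Per the study's methods and processing notes, the authors made poly(A) stranded libraries, trimmed the paired reads (Trimmomatic) and estimated transcript abundance (Salmon). The transcript set and tool versions are not given in the sources used here. The authors deposited estimated counts and TPM per transcript. They also deposited a DESeq2 comparison of the genotypes (base mean signal, log2 fold change, Wald score, p-values and their −log10), from which positions (GRCm39) were taken and no other value.

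Transcripts were summed to genes with GENCODE vM21 identifiers, which matched 49.2% of 276623 transcripts and 98.0% to 98.1% of reads, and sums were rounded. Libraries held 70202750, 88483406 and 76256404 reads in Rpl22+/+ and 35828500, 99806050 and 102866127 in Rpl22-/-, and the 7 genes had at least 8360 reads in each, so library spread rather than counting error limits precision. Of 29374 genes, 16656 passed filterByExpr and were tested in R 4.3.3 by edgeR 4.0.16, quasi-likelihood F test (TMM, genotype only, Benjamini-Hochberg adjustment over all tested genes, passed under 0.05). The SE is that implied by F, and CPM correlations use a prior count of 2. Ratios and transcript shares were compared with two-sided exact permutation tests in scipy 1.17.1. Alternatives were library factors from upper quartiles, from DESeq2 or none, no filter or a filter at a mean of 50 counts, DESeq2 1.42.0, limma-voom and limma 3.58.1 on log2(TPM + 1) or log2(TPM + 0.1), a transcript length offset, the replicate number as a block, and each library left out. Omission of transcripts under 600 bases was added after seeing the data.

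The members, gene lists and motifs were chosen with earlier results of these data known. Named genes are the members, up to 2 genes per list and direction with the smallest p, list genes whose role a sentence needed, and the 3 genes most correlated with each member. An item that this rule names is not reported here. Deviations of libraries with the same replicate number correlated at 0.57, 0.715 and 0.129 over 13202 genes (mean count 50 or more). Over all tested genes the values were 0.479, 0.634 and 0.0974. Rpl22+/+ replicate 3 correlated best with Rpl22-/- replicate 1, at 0.43 and 0.357, so pairing of the third libraries by number is not established in either set of genes. Protein sequences were not used here. Figures were drawn with matplotlib 3.10.9.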

Additional observations from a re-analysis of the deposited data

How the results depend on the processing

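The 6 oxidase genes had negative and Hvcn1 positive log2 fold changes in all 17 alternatives. The number of the 7 genes that fell was 4 in the reported fit and ranged from 1 to 4 with a library left out, being 2 without Rpl22+/+ replicate 3 and 1, Cybb, without Rpl22-/- replicate 1 or 3. It was 6 on log2(TPM + 1), 3 on log2(TPM + 0.1), 5 with the replicate block and 4 in each other fit with all libraries. The number that rose was 0, and 1, Hvcn1, with limma on log2(TPM + 1) and on log2(TPM + 0.1), with 0 in each other alternative. Over the 7 lists the number that fell ranged from 23 to 42 and the number that rose from 3 to 14 with a library left out, the highest in both cases without Rpl22+/+ replicate 2, and 14 rose with no composition factor. All genes called numbered 4594, and 2622 to 6851 with a library left out. With the replicate number as a block, 5 of the 7 genes fell, 41 list genes fell, 10 rose and 5631 genes were called in all, and Cyba was the only one of the 7 whose call changed. Calls were 49.8% higher in the reported fit and 61.5% higher with no composition factor, which put the all-gene median of the log2 fold change at 0.19 in place of 0.07. The difference in the mean log2 ratio of Ncf1 to Ncf4 was -0.02 in TPM, 0.13 in estimated counts and 0.23 without transcripts under 600 bases, an alternative that drops 2 Ncf4 transcripts. Leaving out 1 library moved it between -0.06 and 0.04. The causes of the other changes were not tested. With 3 libraries a group, no exact test of a ratio or share could go below 0.1.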
